A study of Rattus norvegicus with 9 samples.

Results

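Receptors for the classical transmitters were measured in primary cultures of rat ventral midbrain and in the embryonic tissue from which the cultures came. The set comprised 91 genes, of 10411 genes on the array that had a probe set annotated with a single gene symbol. Members were chosen by symbol: the GABA-A, GABA-B, AMPA, NMDA, kainate, metabotropic glutamate, glycine, nicotinic, muscarinic, serotonin, adrenergic and dopamine receptor names, which make up 12 families in 6 transmitter classes. A gene with more than 1 probe set was represented by its brightest, judged by the average of all 9 arrays.

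MesPC was 6 arrays of primary cultures collected after 9 days in vitro. It was set against MesE11, 3 arrays of ventral midbrain dissected at embryonic day 11. According to the labels, the embryos came from 4 pregnant rats and formed 3 groups after mixing, and each group's midbrains were either pooled or dissociated and cultured in duplicate. The labels name no strain, genotype or drug, and they do not say which of the 6 culture arrays are duplicates or which came from which embryo group. They also speak of 3 hybridised cultures, whereas 6 culture arrays are present, so fewer than 6 independent cultures may lie behind them. The p-values therefore measure the spread between these arrays, part of which may be technical. All values are log2 intensities, the logarithm to base 2 of the brightness of a probe set, and all differences are MesPC minus MesE11, so that a difference of 1 is a doubling. A gene was called higher or lower where limma's moderated test, adjusted by the Benjamini-Hochberg method over 15866 probe sets, gave a p below 0.05.

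Transmitter receptors are of 2 kinds. Ionotropic receptors are channels built from several subunits that open when the transmitter binds, and which subunits are present sets the speed, the ion selectivity and the drug response of the channel. Metabotropic receptors are not channels themselves. They span the membrane with several helices, singly or in pairs, and act through G proteins on second messengers. In the embryonic midbrain GABA and glycine receptors precede most synapses, and midbrain neurons later receive glutamate, GABA, acetylcholine and serotonin inputs while releasing dopamine themselves.

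The culture arrays fell into 2 sets that the labels do not explain. Arrays 1 to 3 correlated with each other at 0.9975 to 0.9978 and arrays 4 to 6 at 0.9972 to 0.9977, against 0.9821 to 0.9867 between the sets. Arrays 4 to 6 were closer to the tissue (0.966 to 0.9738) than arrays 1 to 3 (0.9429 to 0.9534). Of 9 measured neuron marker genes, 5 fell and 0 rose. Their summed level was 14.17 to 14.36 on MesPC arrays 1 to 3 and 15.32 to 15.38 on MesPC arrays 4 to 6, against 15.66 to 15.76 on the MesE11 arrays. Fibroblast markers (6 of 7 higher) summed to 14.56 to 14.74 in MesPC and 11.02 to 11.26 in MesE11. Midbrain dopaminergic markers fell in 6 of 7 genes and summed to 10.91 to 11.91 in MesPC and 12.91 to 13 in MesE11. Astrocyte markers rose in 5 of 8 genes, and all 5 erythroid and all 3 endothelial markers fell. The part that these shifts in cell types had in the receptor results was not tested, and in bulk RNA fewer cells of a type cannot be told apart from less RNA per cell.

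Receptor genes were more often lower than higher in culture. Of the 91, 33 were lower in MesPC, 4 were higher and 54 did not pass the test, that is 36.3% lower and 4.4% higher, where 22.5% of all probe sets were lower and 19.7% higher (22.7% and 21.9% counting only the brightest probe set of each gene). Most members were dim, and calls of a higher level were rare among dim probe sets. Of all probe sets with a mean level under 7, 3.77% were higher and 23.0% lower. Between 7 and 8 the shares were 11.7% and 30.1%. The median difference of the members was -0.22, against -0.07 over all probe sets, and single genes ranged from -2.07 (Glra2) to 0.91 (Htr3a). Most changes were small: 2 members, Glra2 and Grm3, were called and at least 2-fold lower, and 0 were 2-fold higher, where 1.88% and 3.33% of all probe sets passed those limits. In 32 members every MesPC value lay below every MesE11 value and in 4 every MesPC value lay above, compared with 23.3% and 19.0% of all probe sets. Glutamate receptors had the highest counts, with 13 of 23 lower, and the plot of differences by family shows the metabotropic glutamate receptors at the low end as a group.

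**Figure D1:**
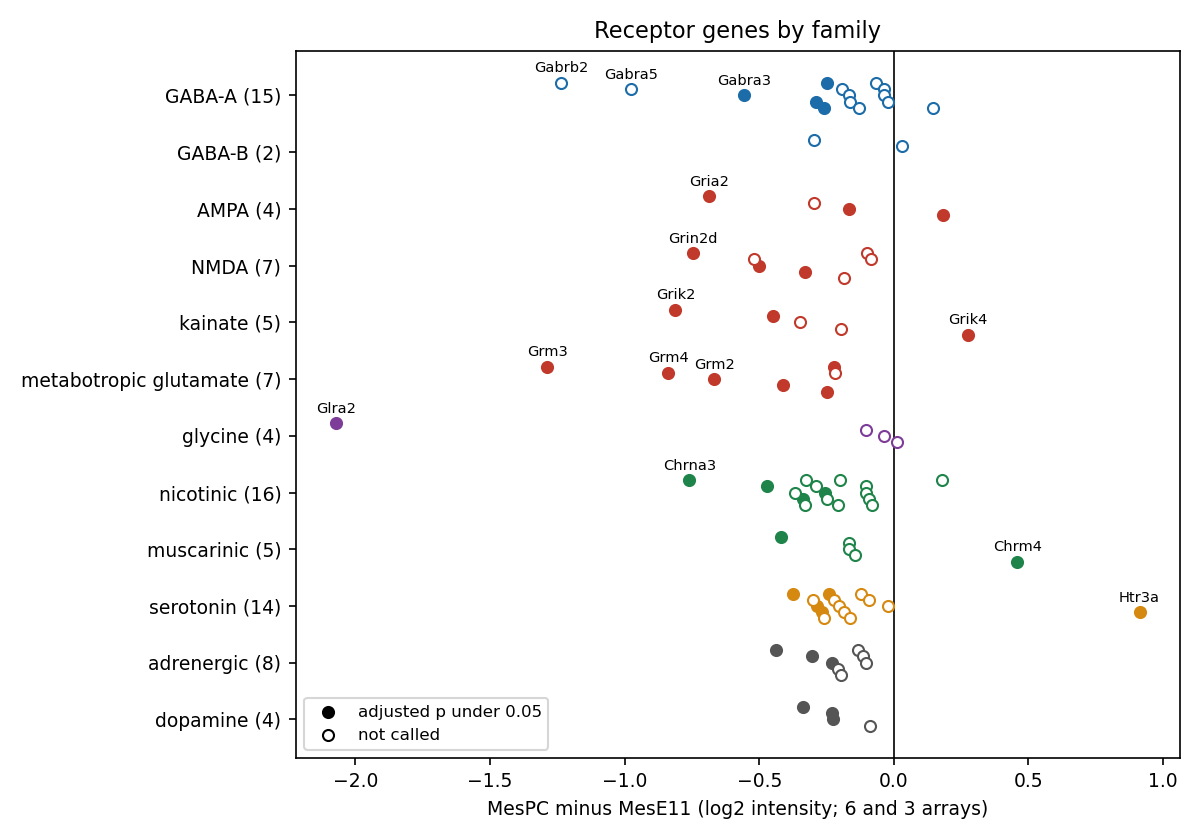
Difference in log2 intensity (MesPC minus MesE11) of each of the 91 receptor genes, arranged by the 12 receptor families; filled points passed the adjusted p of 0.05 and open points did not. Most filled points lie below 0, in metabotropic glutamate receptors 6 of 7, and Htr3a at 0.91 lies highest.

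Glycine receptors are chloride channels, and the form with the subunit encoded by Glra2 is the one typical of the embryonic brain. Glra2 showed the largest difference of all 91 genes. It measured 6.33, 6.35 and 6.34 on MesPC arrays 1 to 3 and 8.38, 8.46 and 8.34 on MesPC arrays 4 to 6, against 9.54, 9.21 and 9.57 on the MesE11 arrays. Every culture value lay below the tissue, and the 2 culture sets lay apart from each other by more than either varied within itself. The difference was -2.07 ± 0.57 (SE, 6 against 3 arrays), or 4.21-fold lower, with an adjusted p of 0.0158. It was -3.10 for arrays 1 to 3 alone and -1.05 for arrays 4 to 6 alone. Values of about 6.3 lie within the range of the bacterial control probe sets, whose group means ran between 4.86 and 6.62. Without MesE11 array 1 or 3 the adjusted p of Glra2 was 0.0554 or 0.0611. The other Glra2 probe set fell by 0.82 ± 0.08 (adjusted p = 3.51e-05), with 6.29 to 6.67 in MesPC and 7.23, 7.26 and 7.37 in MesE11. The remaining glycine receptor genes, Glra1, Glra3 and Glrb, were not called by their brightest probe sets, with differences of -0.10, -0.04 and 0.01. The other Glra1 probe set was lower by 0.21 (adjusted p = 0.023), with both group means inside the bacterial control range. Glrb, which encodes the beta subunit that binds the anchoring protein gephyrin, was dim in both groups, at 5.86 to 6.10 in MesPC and 5.88 to 5.99 in MesE11.

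GABA-A receptors are the main inhibitory chloride channels of the brain, formed of several subunits from different gene families. Of 15 GABA-A genes 4 were lower, 0 were higher and 11 were not called, and the share lower in the GABA class, 23.5%, was near the 22.5% of all probe sets. Gabra3, an alpha subunit gene active early in brain development, measured 6.18 to 6.67 in MesPC with a median of 6.47, against 7.05, 6.91 and 7.06 in MesE11. Its culture values lay below the tissue in both sets, and it fell by 0.56 ± 0.11 (adjusted p = 0.00298), with a culture mean inside the bacterial control range. Gabrr1, a rho subunit gene best known from the retina, fell by 0.25 ± 0.06 at levels within the range of the bacterial controls in both groups. Under quantile normalization its difference was -0.13 (adjusted p = 0.0571). Gabre (-0.29) and Gabrq (-0.26), which encode the epsilon and theta subunits, were lower too, although their culture and tissue values overlapped.

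The larger GABA-A differences were in genes that did not pass the test over all 6 cultures. They are described here because of their values, not by the rule for named genes. Gabrb2, which encodes a beta subunit of the common receptor forms, measured 8.59, 8.31 and 8.59 on MesPC arrays 1 to 3 and 10.23 on each of MesPC arrays 4 to 6, against 10.61, 10.53 and 10.66 on the MesE11 arrays. All cultures lay below the tissue, arrays 1 to 3 far more so. The difference was -1.24 ± 0.48 (adjusted p = 0.0618), and it was -2.10 and -0.37 when arrays 1 to 3 or 4 to 6 were set against the tissue alone, both called. Gabra5, an alpha subunit gene of extrasynaptic receptors, measured 8.01, 7.73 and 7.92 on MesPC arrays 1 to 3 and 9.43, 9.46 and 9.43 on arrays 4 to 6, against 9.72, 9.40 and 9.80 on the MesE11 arrays. Arrays 4 to 6 overlapped the tissue and arrays 1 to 3 did not. The difference of Gabra5 was -0.98 ± 0.44 (adjusted p = 0.0943), with -1.75 for arrays 1 to 3, which was called, and -0.20 for arrays 4 to 6, which was not.

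By their brightest probe sets, both genes of the GABA-B receptor, the metabotropic GABA receptor that works as a pair of Gabbr1 and Gabbr2 products, went opposite ways in the 2 culture sets. Gabbr1 measured 11.10, 10.96 and 11.22 on MesPC arrays 1 to 3 and 12.17, 12.16 and 12.10 on arrays 4 to 6, against 11.88, 11.93 and 11.94 on the MesE11 arrays. Gabbr2 measured 9.92, 9.69 and 10.27 on MesPC arrays 1 to 3 and 10.80, 10.92 and 10.65 on arrays 4 to 6, against 10.39, 10.30 and 10.34 on the MesE11 arrays. For both genes the tissue values lay between the 2 sets. Gabbr1 differed by -0.82 and 0.23 and Gabbr2 by -0.38 and 0.45, each called, while over all 6 cultures neither was called (-0.30 ± 0.29 and 0.03 ± 0.25). Gabrb1, a GABA-A beta subunit gene, showed the same order, with -0.18 and 0.47. Probe sets of Gabbr1 disagreed here: of its 4 dimmer ones, 1 was lower on arrays 1 to 3 (-1.12) and another was lower on arrays 4 to 6 (-0.56). The other Gabbr2 probe set was not called in either set, at 0.03 and 0.02.

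Promoters are shown of the 4 members that were at least 2-fold lower on MesPC arrays 1 to 3 and nearer the tissue on arrays 4 to 6, because they moved together across the arrays, and that of Chrm4 is shown because it holds the 1 match among the members to the site of the neuronal repressor REST. The sequences are from RefSeq on the GRCr8 build and run from 250 bases before to 50 bases after the gene start. Capitals mark letters of the GC box (GGGCGG), the TATA box (TATAAA), the cyclic AMP element (TGACGTCA) or the REST site, on either strand.
Glra2, chrX:32651937-32652236, plus strand: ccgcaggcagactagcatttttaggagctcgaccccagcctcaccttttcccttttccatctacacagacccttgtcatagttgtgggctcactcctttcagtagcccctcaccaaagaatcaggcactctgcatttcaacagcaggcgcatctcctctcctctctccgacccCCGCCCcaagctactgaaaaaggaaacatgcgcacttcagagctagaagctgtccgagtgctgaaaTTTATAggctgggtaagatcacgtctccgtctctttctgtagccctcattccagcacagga
Gabra5, chr1:117516557-117516856, minus strand: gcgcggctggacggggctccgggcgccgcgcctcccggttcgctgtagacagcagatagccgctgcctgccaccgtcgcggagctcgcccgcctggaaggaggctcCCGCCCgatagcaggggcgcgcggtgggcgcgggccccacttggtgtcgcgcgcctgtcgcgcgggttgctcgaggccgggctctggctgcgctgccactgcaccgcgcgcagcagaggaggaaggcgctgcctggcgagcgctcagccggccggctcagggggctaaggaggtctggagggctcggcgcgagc
Gabrb2, chr10:27439543-27439842, plus strand: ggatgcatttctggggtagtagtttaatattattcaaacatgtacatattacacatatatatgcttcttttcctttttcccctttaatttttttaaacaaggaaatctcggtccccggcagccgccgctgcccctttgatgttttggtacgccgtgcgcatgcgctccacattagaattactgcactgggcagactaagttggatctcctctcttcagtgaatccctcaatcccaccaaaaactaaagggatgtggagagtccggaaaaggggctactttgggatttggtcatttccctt
Grik2, chr20:54415234-54415533, minus strand: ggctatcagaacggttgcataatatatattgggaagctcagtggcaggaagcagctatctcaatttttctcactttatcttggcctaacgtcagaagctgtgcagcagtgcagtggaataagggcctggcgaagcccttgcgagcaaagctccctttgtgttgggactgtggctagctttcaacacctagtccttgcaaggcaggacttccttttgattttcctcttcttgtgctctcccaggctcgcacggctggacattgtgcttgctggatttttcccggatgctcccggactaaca
Chrm4, chr3:98348830-98349129, plus strand: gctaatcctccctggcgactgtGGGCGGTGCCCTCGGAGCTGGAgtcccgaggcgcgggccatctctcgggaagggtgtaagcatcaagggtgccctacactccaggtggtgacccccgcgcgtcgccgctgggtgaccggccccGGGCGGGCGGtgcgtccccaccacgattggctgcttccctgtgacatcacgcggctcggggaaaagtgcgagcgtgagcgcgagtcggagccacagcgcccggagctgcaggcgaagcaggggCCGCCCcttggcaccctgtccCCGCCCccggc
A promoter was found for 70 of the 91 members. A GC box occurred in 34 of them (48.6%), against 33.1% of all 33469 promoters, TATAAA in 5.71% against 14.2%, and the cyclic AMP element in 0 against 1.83%. The median GC content was 59.8%, against 51.7%. Members had 1 promoter each, while the 33469 were every entry of the reference, not limited to 1 per gene or to genes on the array. The 2 sides are therefore not matched. The REST site (RE1) was searched with up to 4 mismatches among its 18 fixed letters, a limit chosen after the matches were seen. It occurred in 1.43% of member promoters and in 0.58% of all. In Chrm4 the match lies on the minus strand from base 24 of the window and overlaps a GC box. Gabrb2 and Grik2 carry none of the motifs, and Glra2 carries a GC box and a TATAAA on the minus strand. These matches are descriptions of the letters only.

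Glutamate receptors made up the class with the most genes lower in culture. Of 23 genes 13 were lower and 2 higher (56.5% and 8.7%, against 22.5% and 19.7% of all probe sets). The other 8 were not called, and the median difference was -0.33. AMPA receptors carry fast excitatory current, and the Gria2 subunit limits their calcium entry. Gria2 measured 10.71, 10.69 and 10.64 on MesPC arrays 1 to 3 and 11 to 11.10 on arrays 4 to 6, against 11.54, 11.53 and 11.60 on the MesE11 arrays. All 6 cultures lay below the tissue, and Gria2 fell by 0.69 ± 0.12 (adjusted p = 0.0012). The other Gria2 probe set had a difference of -0.55 and was not called. Gria4 fell by 0.17, at a level within the range of the bacterial controls. Gria1 was higher by 0.18 ± 0.06 (adjusted p = 0.0418), with 6.89 to 7.13 in MesPC and 6.78, 6.71 and 6.84 in MesE11. The call on Gria1 was lost under 12 of the alternative settings, among them without any 1 of MesE11 arrays 1 to 3 (0.0559 to 0.135).

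NMDA receptors open when glutamate binds a depolarised cell, and each holds the subunit encoded by Grin1. Of 7 NMDA genes 3 were lower (42.9%, against 22.5% of all probe sets) and 0 higher. Grin1 itself was not called: it measured 8.82, 8.72 and 8.61 on MesPC arrays 1 to 3 and 9.47, 9.71 and 9.45 on arrays 4 to 6, against 9.69, 9.56 and 9.71 on the MesE11 arrays. Arrays 4 to 6 overlapped the tissue and arrays 1 to 3 lay below it, with differences of -0.11 and -0.94, and over all cultures the difference was -0.52 ± 0.24 (adjusted p = 0.104). Grin2d encodes a subunit of embryonic receptors that is prominent in the midbrain and brainstem. It measured 7.09, 6.85 and 6.94 on MesPC arrays 1 to 3 and 7.40, 7.39 and 7.31 on arrays 4 to 6, against 7.99, 7.77 and 7.98 on the MesE11 arrays. All cultures lay below the tissue, and Grin2d fell by 0.75 ± 0.13 (adjusted p = 0.0016). Grin3a, whose subunit lowers the calcium permeability of the channel, fell by 0.50 ± 0.09, with 6.37 to 6.78 in MesPC and 7.09, 7.12 and 6.96 in MesE11. Grin2b, the subunit gene that dominates before birth in the forebrain, fell by 0.33 ± 0.07, with 7.95 to 8.21 in MesPC and 8.40, 8.44 and 8.47 in MesE11.

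Kainate receptors modulate transmitter release and excitability. Of 5 genes 2 were lower and 1 was higher (40% and 20%, against 22.5% and 19.7% of all probe sets). Grik2, which encodes a subunit able to form channels alone, measured 7.16, 6.94 and 7.12 on MesPC arrays 1 to 3 and 8.14, 8.06 and 7.91 on arrays 4 to 6, against 8.29, 8.44 and 8.37 on the MesE11 arrays. The cultures all lay below the tissue, with differences of -1.29 and -0.33 for the 2 sets. Over all cultures Grik2 fell by 0.81 ± 0.27 (adjusted p = 0.0378), and the adjusted p was between 0.0506 and 0.105 without any 1 of the MesE11 arrays or any 1 of MesPC arrays 1 to 3. Grik1, its close relative, fell by 0.45 ± 0.09, with 7.21 to 7.56 in MesPC and 7.72, 7.76 and 7.91 in MesE11. Grik4 encodes a high-affinity subunit that needs a partner such as the Grik2 product. It was higher by 0.27 ± 0.07 (adjusted p = 0.0104), with 8.86 to 9.02 in MesPC and 8.64, 8.80 and 8.51 in MesE11, but not without MesE11 array 3 (0.0509). The other high-affinity gene, Grik5, was not called (-0.35).

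Metabotropic glutamate receptors were the family with the highest share lower: 6 of 7 fell, against 22.5% of all probe sets. In all 6 every culture value lay below every tissue value, as in 23.3% of all probe sets. Grm3, a group II receptor that inhibits cyclic AMP formation and is found on neurons and astrocytes, measured 8.30, 8.0 and 8.19 on MesPC arrays 1 to 3 and 8.30, 8.15 and 8.08 on arrays 4 to 6, against 9.39, 9.67 and 9.30 on the MesE11 arrays. The 2 culture sets coincided. Grm3 fell by 1.29 ± 0.09 (adjusted p = 6.01e-06), or 2.44-fold, with -1.29 and -1.28 in the 2 sets. Grm4, a group III presynaptic receptor, measured 6.89, 6.79 and 7.11 on MesPC arrays 1 to 3 and 6.91, 7.12 and 7.07 on arrays 4 to 6, against 7.69, 7.71 and 8.05 on the MesE11 arrays. It fell by 0.84 ± 0.10 (adjusted p = 1.71e-04) with no gap between the culture sets. Grm2, the other group II receptor, lay at 6.79 to 6.94 in MesPC and at 7.66, 7.33 and 7.60 in MesE11, and it fell by 0.67 ± 0.08. Grm7, a group III receptor of presynaptic active zones, lay at 6.09 to 6.35 in MesPC and at 6.59, 6.67 and 6.60 in MesE11, and it fell by 0.41 ± 0.06, with its culture mean inside the bacterial control range. Grm8 and Grm6, also of group III, fell by 0.25 and 0.22. With the culture sets as a random block these 2 were not called (adjusted p = 0.191 and 0.199), which left 4 of 7. The other probe sets of Grm8 were not called (adjusted p = 0.207 and 0.0988). Of the other Grm6 probe sets 1 was lower (adjusted p = 0.027) and 1 was not called (0.106), both within the bacterial control range. The remaining member, Grm5, a group I receptor that raises intracellular calcium, was not called (-0.22, adjusted p = 0.153). In contrast to Glra2 or Gabrb2, the 2 culture sets thus gave like values for the leading members of this family, as the plot by array shows.

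**Figure D2:**
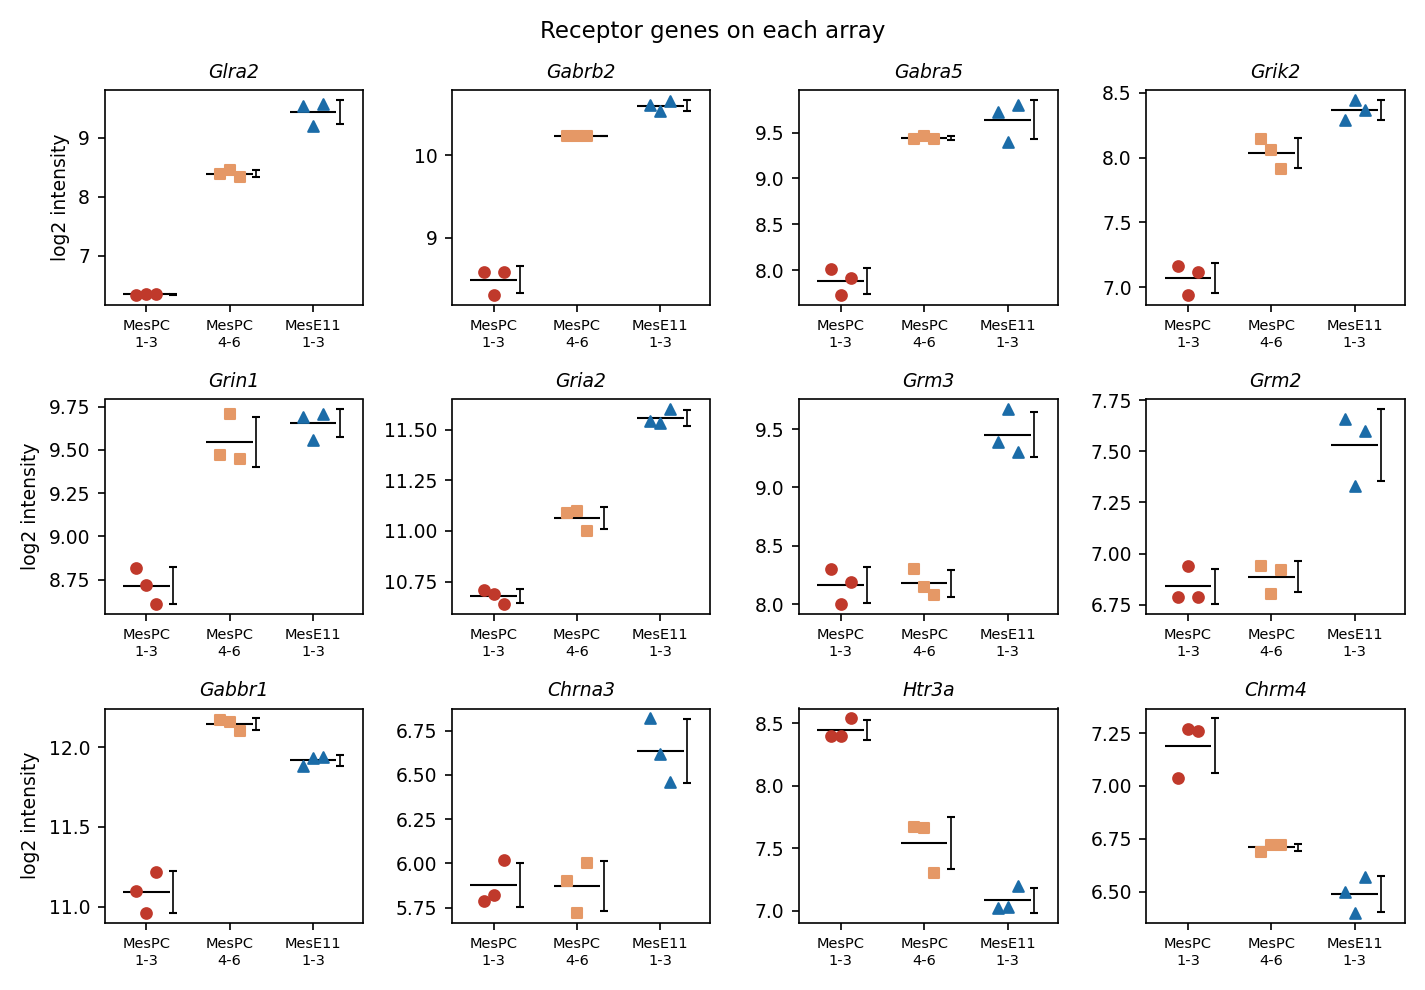
Log2 intensity on each array for 12 receptor genes, with MesPC arrays 1 to 3, MesPC arrays 4 to 6 and MesE11 arrays from left to right; points are arrays, lines are means, bars are the SD of 3 arrays, and the vertical range differs between panels. Glra2, Gabrb2, Gabra5 and Grik2 step up between the culture sets, Grm3 and Grm2 do not, and Gabbr1 has the tissue between the sets.

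Acetylcholine acts on nicotinic channels and on muscarinic receptors. Of 21 genes 5 were lower, 1 was higher and 15 were not called, and the share lower, 23.8%, was near the 22.5% of all probe sets. Chrna3, the alpha subunit gene of ganglion-type nicotinic receptors, measured 5.72 to 6.02 in MesPC with a median of 5.86, against 6.82, 6.62 and 6.46 in MesE11. It fell by 0.76 ± 0.09 (adjusted p = 1.72e-04), with culture values no brighter than bacterial control probe sets. Chrna5, an accessory subunit gene, fell by 0.34 ± 0.06 with both groups in that range, at 5.77 to 5.99 in MesPC and 6.24, 6.16 and 6.27 in MesE11. Chrnb2, the beta subunit gene of most brain nicotinic receptors, lay at 6.96 to 7.28 in MesPC and at 7.42, 7.55 and 7.62 in MesE11, and it fell by 0.47 ± 0.08 (adjusted p = 0.00122). Its usual partners were not called: Chrna4 had a difference of -0.37 ± 0.14 (adjusted p = 0.0577) and Chrna6, typical of dopamine neurons, one of -0.25 ± 0.10 (adjusted p = 0.0764). With arrays 4 to 6 alone both were called, at -0.56 and -0.38. Chrnd, a subunit gene of the muscle receptor, was lower by 0.26 with overlapping values.

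Muscarinic receptors gave 1 gene in each direction out of 5 (20% each, near the 22.5% lower and 19.7% higher of all probe sets). Chrm3, coupled to phospholipase C, measured 8.01, 8.29 and 8.29 on MesPC arrays 1 to 3 and 8.24, 8.27 and 8.37 on arrays 4 to 6, against 8.68, 8.76 and 8.54 on the MesE11 arrays, and fell by 0.42 ± 0.08. Its other probe set was not called (adjusted p = 0.997), and the average of both fell by 0.21. Chrm4, coupled to the inhibition of cyclic AMP, was higher: 7.04, 7.27 and 7.26 on MesPC arrays 1 to 3 and 6.69, 6.72 and 6.72 on arrays 4 to 6, against 6.50, 6.40 and 6.57 on the MesE11 arrays. The order of the culture sets was the reverse of that of Glra2, with arrays 1 to 3 farthest from the tissue but on the upper side (0.70, against 0.22 for arrays 4 to 6). The difference was 0.46 ± 0.15 (adjusted p = 0.0301). It did not pass without any 1 of the MesE11 arrays (0.0647 to 0.0984), nor without MesPC array 1 (0.0535).

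Serotonin receptors included the largest increase of the set. Of 14 genes 4 were lower (28.6%, against 22.5% of all probe sets), 1 was higher and 9 were not called. Htr3a encodes the serotonin-gated cation channel, the ionotropic member among these receptors with Htr3b. It measured 8.40, 8.40 and 8.54 on MesPC arrays 1 to 3 and 7.67, 7.66 and 7.30 on arrays 4 to 6, against 7.02, 7.03 and 7.20 on the MesE11 arrays. All cultures lay above the tissue, arrays 1 to 3 by 1.36 and arrays 4 to 6 by 0.46. The difference was 0.91 ± 0.26 (adjusted p = 0.02), or 1.88-fold. Without any 1 tissue array the adjusted p was between 0.0515 and 0.068. Htr2c, a receptor that acts through phospholipase C, lay at 7.11 to 7.42 in MesPC and at 7.64, 7.49 and 7.78 in MesE11, and it fell by 0.38 ± 0.09 (adjusted p = 0.00731). Htr6 and Htr7, both coupled to cyclic AMP formation, fell by 0.29 ± 0.07 and 0.27 ± 0.07, and Htr1b, which inhibits transmitter release from axon terminals, fell by 0.24 ± 0.07. The calls were lost without MesE11 array 1 (0.0576) or 3 (0.0739) for Htr7, and without MesE11 array 2 (0.0691) or 3 (0.0622) for Htr1b. Averaging the 3 probe sets of Htr7 gave -0.12 (0.0595), its other 2 having differences of -0.06 and -0.03, and quantile normalization gave -0.14 (0.0841) for Htr1b.

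Adrenergic and dopamine receptors all had negative differences, between -0.44 and -0.09, and 6 of 12 were called lower, against 22.5% of all probe sets. Their mean levels were 6.50 to 8.10, where all probe sets leaned the same way. Between 7 and 8, 30.1% of all probe sets were lower, with a median of -0.14, and under 7, 23.0% were, with -0.11. With the culture sets as a random block 0 of the 12 were lower, and under quantile normalization 3 were. Adra1b had the largest difference, at -0.44, with overlapping values. Adra2b, which inhibits cyclic AMP formation, lay at 7.51 to 7.83 in MesPC and at 7.97, 7.87 and 8.25 in MesE11, and it fell by 0.30 ± 0.10. Without MesE11 array 3 its difference was -0.19 (adjusted p = 0.141), and without array 1 the adjusted p was 0.0579. Adra1a, coupled to phospholipase C, fell by 0.23 ± 0.06, but under quantile normalization its difference was -0.11 (adjusted p = 0.0586). Among dopamine receptors, Drd5, which raises cyclic AMP, measured 7.23, 7.34 and 7.34 on MesPC arrays 1 to 3 and 7.12, 6.97 and 7.35 on arrays 4 to 6, against 7.58, 7.50 and 7.60 on the MesE11 arrays. It fell by 0.34 ± 0.09 (adjusted p = 0.0143), and the call was lost without MesE11 array 1 or 3. Drd1, of the same coupling, and Drd3, which inhibits cyclic AMP formation, each fell by 0.23 ± 0.08, with adjusted p of 0.0422 and 0.0387. Together with Gria1, these were the least stable calls on named genes. Drd1 lost its call under 10 alternative settings, Drd3 under 13 and Gria1 under 12. For Drd3 the value without MesE11 array 3 was -0.11, against -0.23 with it. Drd4 was not called by its brightest probe set (-0.09). Another Drd4 probe set was lower by 0.28 (adjusted p = 0.0316), with overlapping values and a culture mean inside the bacterial control range. A further one was not called (-0.15, adjusted p = 0.0864).

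Receptor counts depended on which culture arrays were set against the tissue. Both comparisons share the 3 tissue arrays, so their values are given side by side only. With arrays 1 to 3, 34 members were lower and 5 higher (37.4% and 5.49%, against 26.2% and 23.5% of all probe sets), and the median was -0.16. With arrays 4 to 6, 54 were lower and 6 higher (59.3% and 6.59%, against 27.3% and 21.0%), and the median was -0.27. The lower quartile of all probe sets was 6.98 to 7.07 on arrays 4 to 6 and 7.09 to 7.11 on arrays 1 to 3. The part that this shift at the dim end had in the counts was not tested. Members that were lower in both comparisons numbered 26, those higher in both 3 (Grik4, Chrm4 and Htr3a), and those called in opposite directions 3 (Gabrb1, Gabbr1 and Gabbr2). Called and at least 2-fold lower were 5 members with arrays 1 to 3 (Gabra5, Gabrb2, Grik2, Grm3 and Glra2) and 2 with arrays 4 to 6 (Grm3 and Glra2). In the glutamate class the median was -0.41 with arrays 1 to 3 and -0.30 with arrays 4 to 6. In the acetylcholine class it was -0.16 and -0.26, and in the serotonin class -0.13 and -0.29. When the 2 sets were a random block in the fit, with an estimated correlation of 0.447 between arrays of a set, 13 members were lower and 1, Htr3a, was higher, against 8.5% and 11.8% of all probe sets. Those lower were Gabra3, Gria2, Grin2d, Grin3a, Grik1, Grm2, Grm3, Grm4, Grm7, Glra2, Chrna3, Chrna5 and Chrnb2. The fit used this 1 correlation for every probe set, also where the culture sets lay far apart. The SE of Glra2 was 0.54 with the block and 0.57 without it, and that of Htr3a 0.28 and 0.26. For these 2 genes the block thus took little account of the gap between the sets. The calls on Grin2b, Grik2, Grik4, Chrm3, Chrm4 and Htr2c were lost with this block, at adjusted p between 0.0539 and 0.136, as were those on Gabrr1, Gria1, Htr6, Htr7, Htr1b, Adra2b, Adra1a and the dopamine receptors, at 0.0824 to 0.282.

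**Figure D3:**
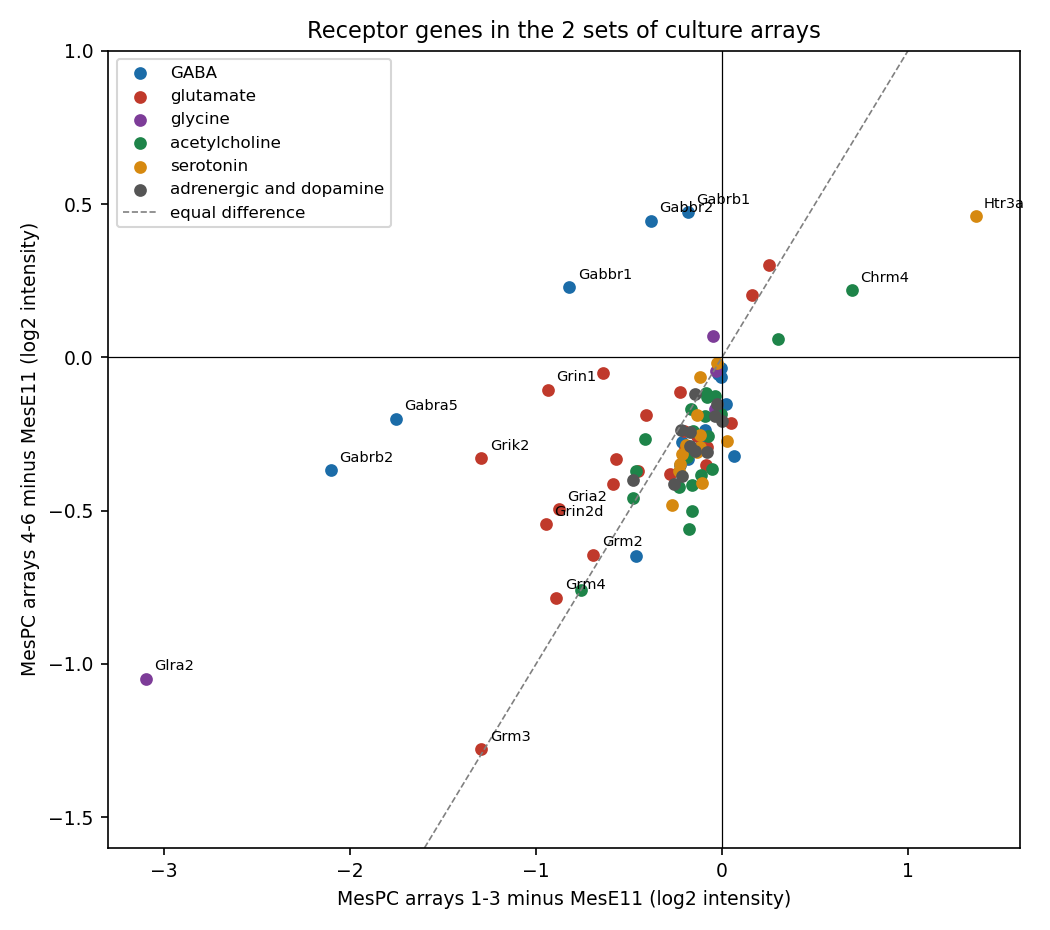
Difference in log2 intensity of each receptor gene for MesPC arrays 4 to 6 (vertical) and MesPC arrays 1 to 3 (horizontal), each minus the same 3 MesE11 arrays; the dashed line marks equal differences. Grm3 lies on the line, Glra2, Gabrb2, Gabra5 and Grik2 lie above it, and Htr3a and Chrm4 lie below it on the positive side.

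Most receptor genes were dim, and the background differed with the level. Of the 91, 32 had a mean level under 7 and 33 one between 7 and 8, while the lower quartile of all probe sets was 6.98 to 7.11 on the MesPC arrays and 7.15 to 7.21 on the MesE11 arrays. Among all probe sets under 7, 3.77% were higher and 23.0% lower, and of those members 2 were higher and 9 lower. Between 7 and 8, 11.7% of all probe sets were higher and 30.1% lower, with 1 member higher and 15 lower. Between 8 and 9 the shares were 23.3% and 23.7%, with 1 member higher and 7 lower. At 9 to 10, 30.2% of all probe sets were higher and 19.8% lower, and none of the 4 members was called. At 10 or more, 29.3% were higher and 18.2% lower, and of 4 members 2 (Gria2 and Grm8) were lower and 0 higher. The median difference of members was below that of all probe sets in each level range, for instance -0.28 against -0.05 between 8 and 9. The MesPC mean of 22 members was inside the bacterial control range, among them Gabra3, Grin3a, Grm7, Chrna3 and Drd3, so their differences rest on a culture level not distinguished from these controls. In 16 of the 22 the MesE11 mean was inside too, and a change in such genes could not be measured well on these arrays.

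**Figure D4:**
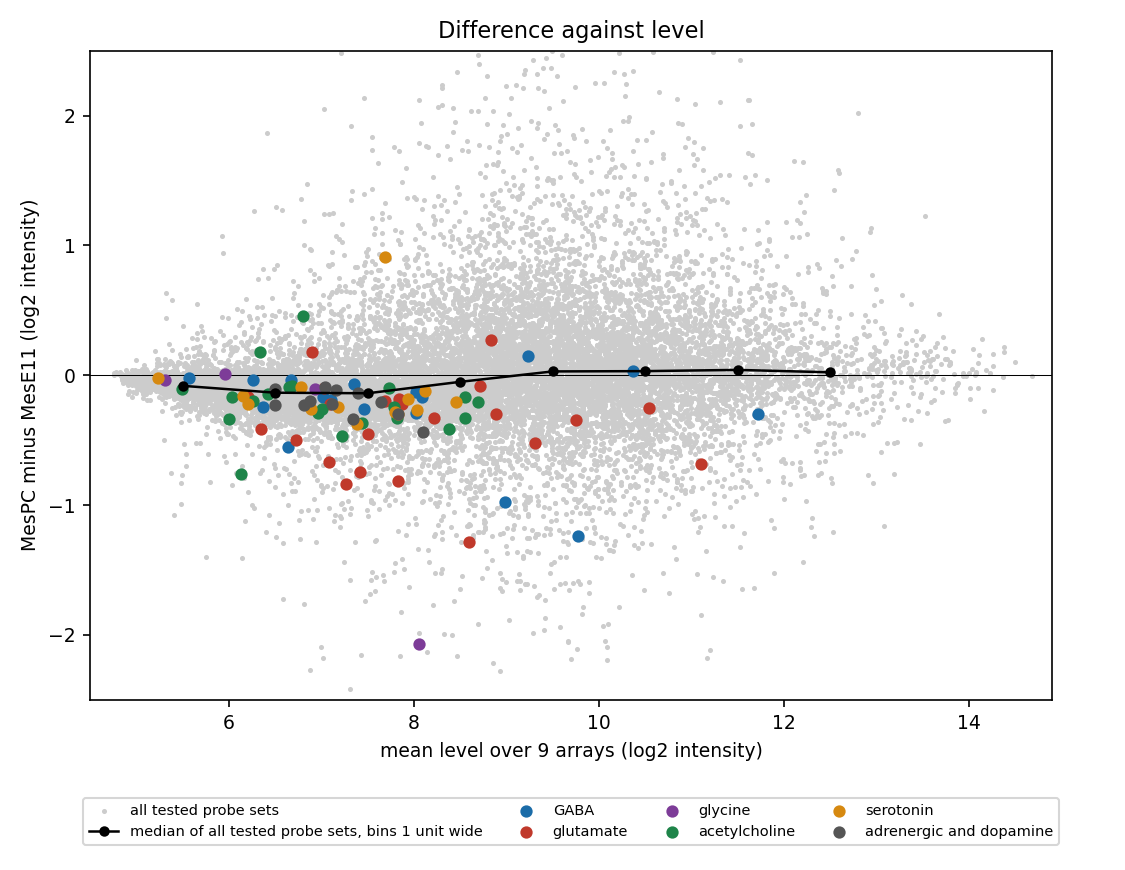
Difference in log2 intensity (MesPC minus MesE11) against the mean log2 intensity over 9 arrays for all probe sets and for the 91 receptor genes, with the running median of all probe sets; 38 probe sets lie beyond the vertical range of 2.5 either way. Receptor genes crowd at the dim end, where decreases are the more frequent calls in all probe sets, and Glra2 and Grm3 stand lowest among them.

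Proteins that anchor or accompany the receptors were examined from lists of known partners. In the list for glutamate receptors, 17 of 30 measured genes were lower and 2 higher (56.7% and 6.67%, against 22.5% and 19.7% of all probe sets), with a median of -0.28. Cacng3 and Cacng2 encode transmembrane AMPA receptor regulatory proteins, which carry AMPA receptors to synapses. Cacng3 measured 7.34, 7.41 and 7.17 on MesPC arrays 1 to 3 and 7.97 on each of arrays 4 to 6, against 8.70, 8.64 and 8.88 on the MesE11 arrays. It fell by 1.10 ± 0.19 (adjusted p = 0.00163), with all cultures below the tissue. Cacng2 fell by 1.01 ± 0.32 (adjusted p = 0.029), Nptx1, a secreted pentraxin that gathers AMPA receptors, by 0.98 ± 0.13, and Nlgn1, an adhesion protein of excitatory synapses, by 0.89 ± 0.18. The scaffold genes Dlg1 (0.97 ± 0.09) and Dlgap1 (0.86 ± 0.08) were the 2 that rose. Cacng2 did not pass without any 1 of the MesE11 arrays (0.0716 to 0.0897) or without MesPC array 3 (0.0508).

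For inhibitory receptors, 3 of 9 measured partners were lower and 2 higher (33.3% and 22.2%), shares near those of all probe sets (22.5% and 19.7%). Plcl1, which takes part in GABA-A receptor trafficking, measured 7.95, 7.61 and 8.01 on MesPC arrays 1 to 3 and 8.78, 8.78 and 8.76 on arrays 4 to 6, against 9.12, 9.14 and 9.30 on the MesE11 arrays. It fell by 0.87 ± 0.27 (adjusted p = 0.0253), with the lower values on arrays 1 to 3, and did not pass without any 1 of the MesE11 arrays (0.0632 to 0.0934). Trak2, a motor adaptor first found as a GABA-A receptor partner, fell by 0.66 ± 0.09, and by 0.28 when its probe sets were averaged. Gphn, which encodes gephyrin, the scaffold of glycine and GABA-A receptors, was higher by 0.43 ± 0.11 (adjusted p = 0.00906), with 9.80 to 10.26 in MesPC and 9.50, 9.76 and 9.60 in MesE11. With the culture sets as a random block Gphn was not called (adjusted p = 0.0629). For acetylcholine receptors, 1 of 5 measured partners was lower and 1 higher (20% each, near the shares of all probe sets). Lynx1, a membrane-bound modulator of nicotinic channels, was lower by 0.25 with overlapping values (adjusted p = 0.187 with that block). Lrp4, the agrin receptor of the neuromuscular junction, was higher, with 9.89 to 10.12 in MesPC and 8.28, 8.25 and 7.60 in MesE11.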

How the data were processed

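Total RNA of 9 samples was hybridised to Affymetrix rat expression arrays, per the labels. The authors deposited 1 table of 15923 probe sets with log2 intensities made by RMA, per the submitters' processing notes; the RMA version was not given in the sources read, and the log2 scale was read from the values. Precision is limited by the number of arrays.

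From the deposited log2 values, 57 control probe sets were left out and the moderated test of limma 3.58.1 (R 4.3.3) compared 6 MesPC with 3 MesE11 arrays over 15866 probe sets, with Benjamini-Hochberg adjustment. The script was tested on simulated data. Genes were named from the array annotation, for probe sets with a single symbol. A gene's brightest probe set was used. Differences from the fit are given with their SE.

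The members and lists were chosen with earlier results of these data known. Genes named with values were, in each family, up to 4 called members with the largest difference in the prevailing direction whose culture values all lay on 1 side of the tissue values, up to 2 in the other, up to 4 partners per list, and always Gria2, Grin1, Chrna4, Chrna6, Chrnb2, Htr2c and Drd1. Some further receptor genes are not reported here. Any gene described outside this rule was picked with its values known.

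Alternatives were quantile normalization, centring on the median or on ribosomal proteins, a filter against the dimmest 40% of probe sets, averaging the probe sets of a gene, eBayes with a trend, each culture set alone, the sets as a random block (duplicateCorrelation), the replicate number as a block, and leaving out each array. Replicate numbers were checked for pairing.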

Additional observations from a re-analysis of the deposited data

Results flagged for a closer look

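Among the 6 culture arrays, 3 of the 39 named genes had 1 array far from the others, with a gap to the nearest value, as a share of the whole range, above Dixon's critical value for 6 samples. Chance gives this in about 1 of 20 groups. Gria1, an AMPA receptor subunit gene, stood at 7.13 on MesPC array 4, with a gap of 0.677 of the range. Chrnb2, the nicotinic beta subunit gene, stood at 7.28 on MesPC array 6, with a gap of 0.646. Chrm3, a muscarinic receptor gene, stood low at 8.01 on MesPC array 1, with a gap of 0.63. The call on Gria1 is among those lost when other arrays are left out. Those on Chrnb2 and Chrm3 hold without the array concerned.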

How the results depend on the processing

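No call on the 39 named genes turned its direction: of 713 values, 613 stayed on their side of the threshold, 89 lost the call and 11 gained it, and 16 genes kept theirs throughout. Over all probe sets, 1936 were lower without the dimmest 40%, and 1879 were higher and 1348 lower with the random block, against 3128 and 3565; leaving out 1 array gave 2484 to 3171 higher and 2241 (without MesE11 array 3) to 3458 lower. Members lower numbered 33, but 7 without the dimmest 40% (23 members left), 13 with the random block, 54 with arrays 4 to 6 alone and 18 (without MesE11 array 3) to 37 without 1 array. Members higher numbered 4, but 2 with ribosomal centring, 1 without the dimmest 40% or with the random block, and 0 (without MesE11 array 3) to 4 without 1 array. The cause was not tested. Without the dimmest 40%, 9519 probe sets were left, and dim members were absent from the counts, here and by class below. The 11 named genes left in that fit all kept their side of the threshold. The median of the members, -0.22, was -0.14 under quantile normalization, -0.30 without the dimmest 40% and -0.16 with arrays 1 to 3.

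Equal replicate numbers, which only arrays 1 to 3 share, showed no pairing: deviations of same-numbered arrays correlated at 0.084, -0.119 and -0.111. Arrays 1, 2 and 3 of MesE11 correlated with MesPC arrays 4, 5 and 6, taken in that order, at 0.24, 0.134 and 0.363. The other pairs between MesE11 and MesPC arrays 4 to 6 gave -0.296 to 0.103. The highest value with MesPC arrays 1 to 3 was 0.257, between MesE11 array 3 and MesPC array 2. No label ties these numbers, and no block was fitted for them. A pairing by embryo group may exist, and the main test takes none into account. With the replicate number as a block over arrays 1 to 3, 31 members were lower and 4 higher with a median of -0.16, glutamate receptors gave 1 higher and a median of -0.41, acetylcholine 2 higher, and adrenergic and dopamine 2 lower. In this fit Htr1b (0.0627), Adra1a (0.0726), Adra2b (0.0618), Gria1 (0.0996), Drd3 (0.0582) and Drd1 (0.186) were not called, and Grin1 was. Without the block, arrays 1 to 3 alone already gave no call on Adra2b, Drd3 and Drd1 and a call on Grin1. Partners gave 5 lower and 1 higher (inhibitory), 4 higher (glutamate) and 0 lower (acetylcholine).

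By class, GABA gave 2 lower under quantile normalization, 0 without the dimmest 40%, 1 with the random block, 7 with arrays 1 to 3, 9 (and 3 higher) with arrays 4 to 6, and 2 to 5 without 1 array. Glutamate gave 4 lower without the dimmest 40% and 8 with the random block. Its 2 higher were 1 with median centring, without the dimmest 40% or with arrays 4 to 6, 0 with ribosomal centring or the random block, and 0 to 2 without 1 array; its median was -0.41 with arrays 1 to 3. Glycine gave 2 lower with the mean of probe sets and 0 to 1 without 1 array; its median was 0.01 under quantile normalization and -2.07 without the dimmest 40%, where Glra2 alone was left. Acetylcholine gave 10 lower with median and 11 with ribosomal centring, 1 without the dimmest 40%, 3 with the random block, 13 with arrays 4 to 6 and 4 to 9 without 1 array; it gave 2 higher under quantile normalization or with arrays 1 to 3, 0 without the dimmest 40% or with the random block, and 0 to 1 without 1 array. Serotonin gave 8 lower with median centring, 0 without the dimmest 40% or with the random block, 10 with arrays 4 to 6 and 2 to 7 without 1 array, and 0 higher without the dimmest 40% and 0 to 1 without 1 array. Adrenergic and dopamine gave 3 lower under quantile normalization or with arrays 1 to 3, 1 without the dimmest 40% (median -0.44, 1 member left), 0 with the random block and 1 to 6 without 1 array.

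Inhibitory partners gave 1 higher under quantile normalization, with median centring, without the dimmest 40% or with either culture set, 0 with ribosomal centring or the random block, and 1 to 2 higher and 1 to 4 lower without 1 array. Glutamate partners gave 4 higher with arrays 1 to 3, and 10 lower without the dimmest 40%, 7 with the random block and 10 to 18 without 1 array. Acetylcholine partners gave 2 higher with arrays 4 to 6, 2 lower under quantile normalization, ribosomal centring or eBayes with a trend, 3 with median centring or arrays 4 to 6, 0 without the dimmest 40%, with the random block or with arrays 1 to 3, and 0 to 1 without 1 array. Low signal limits the precision of the dim members.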
